A study of Homo sapiens with 30 samples.

Results

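The regions described here are stretches of the genome that were called at the nuclear lamina in G1 and were no longer called there in G2. The autosomes of the hg19 build, chromosomes 1 to 22, were divided into 28823 bins of 100 kb, and a bin counted as covered in a stage when at least 50% of it lay in a lamina domain of that stage. This rule gave 434 bins covered in G1 and not in G2, which were 1.51% of all bins and 8.14% of the 5331 bins covered in G1. Of these 434 bins, 223 (51.4%) were still covered in S and 211 were not. The choice of these bins used the G1 and G2 calls, so those calls are a description of them and are not tested. Coverage of a bin was all or nothing in each of the 3 stages, so no bin lay just inside or just outside the 50% limit.

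The domains came from HCT116, a human colorectal carcinoma cell line, in which a fusion of the peroxidase APEX2 and lamin B1 labels chromatin close to the lamina. There were 2 samples of pulled-down DNA and 2 of input DNA in each of G1, S and G2, and 1 consensus list of domains was deposited per stage. RNA was measured in HEK293FT, a human embryonic kidney line, in 4 groups of 2 libraries each: a nuclear fraction, a cytosolic fraction, native RNA labelled at the lamina, and lamina RNA fixed with PFA (paraformaldehyde). All groups in both cell lines carried the transfected APEX2 and lamin B1 construct, delivered with Lipofectamine 2000, and no group without it was analysed here. The HEK293FT cultures were asynchronous, so their RNA carries no cell cycle stage and is set beside domains of another cell line. Nothing in the labels says that the 2 libraries of a group came from separate cultures, so p-values measure the spread between these libraries, which may be technical.

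Lamina-associated domains are long, gene-poor and mostly silent stretches of chromatin that touch the meshwork of lamins under the inner nuclear membrane. The nuclear envelope breaks down in mitosis and the contacts are built anew in the daughter nuclei at the start of G1, after which cells copy their DNA in S and reach G2. Genes inside such domains are often neuronal, sensory or otherwise tissue-restricted, and several families of clustered genes, among them olfactory receptors and KRAB zinc finger genes, lie in or beside them.

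Promoter sequences are shown for 5 genes that start in these bins. They were taken from RefSeq on GRCh38.p14, while the bins are on hg19, and each is the 250 bases before an annotated start, written 5′ to 3′ on the gene's strand. The first 2 are NRN1, the gene with the highest RNA level per kb of exon among those in the bins, and TMPRSS15, which had no count in any library, with each CG in capitals. The other 3 are zinc finger genes of chromosome 19, with capitals for the longest run of bases that all 3 share, 17 in length. Shorter runs that all 3 share, and runs of 24 to 27 bases shared by pairs, are not marked.
NRN1: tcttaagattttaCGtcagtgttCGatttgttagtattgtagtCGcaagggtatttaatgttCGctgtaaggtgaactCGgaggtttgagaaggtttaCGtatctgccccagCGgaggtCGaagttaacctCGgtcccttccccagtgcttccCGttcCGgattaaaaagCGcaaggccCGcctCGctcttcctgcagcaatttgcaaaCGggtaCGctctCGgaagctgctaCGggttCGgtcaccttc
TMPRSS15: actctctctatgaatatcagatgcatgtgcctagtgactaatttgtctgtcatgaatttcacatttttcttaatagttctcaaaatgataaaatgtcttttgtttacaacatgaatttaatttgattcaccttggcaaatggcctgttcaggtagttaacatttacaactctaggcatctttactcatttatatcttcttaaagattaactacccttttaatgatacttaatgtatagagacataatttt
ZNF708: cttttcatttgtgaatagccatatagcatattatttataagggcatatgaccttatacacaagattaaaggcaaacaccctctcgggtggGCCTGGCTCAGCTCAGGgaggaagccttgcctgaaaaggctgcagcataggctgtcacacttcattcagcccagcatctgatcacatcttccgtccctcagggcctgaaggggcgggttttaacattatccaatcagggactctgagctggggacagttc
ZNF493: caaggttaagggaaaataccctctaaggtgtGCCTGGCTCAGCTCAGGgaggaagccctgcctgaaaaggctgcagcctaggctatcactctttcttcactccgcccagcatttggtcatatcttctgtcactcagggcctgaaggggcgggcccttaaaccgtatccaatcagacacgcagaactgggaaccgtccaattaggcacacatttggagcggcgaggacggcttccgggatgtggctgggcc
ZNF85: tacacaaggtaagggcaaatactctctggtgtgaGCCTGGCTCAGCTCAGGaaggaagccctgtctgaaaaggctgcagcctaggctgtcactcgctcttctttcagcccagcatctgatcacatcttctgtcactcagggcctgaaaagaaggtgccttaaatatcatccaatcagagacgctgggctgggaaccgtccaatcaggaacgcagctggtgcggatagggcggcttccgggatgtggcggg
NRN1 held 19 CG in these 250 bases and TMPRSS15 held 0. In the window of 300 bases that includes 50 after the start they held 28 and 0, and the median over the first listed start of 27305 symbols was 14. The shared run GCCTGGCTCAGCTCAGG, searched on both strands, was present in 12 of those 27305 promoters (0.0439%), of which 10 carry a ZNF symbol and 11 lie on chromosome 19. It began 160 bases before the start in ZNF708, 219 in ZNF493 and 216 in ZNF85. Promoters were found for 56 of the 105 genes of the bins (53.3%), too few for any statement on their sequence as a group, so these letters describe the genes shown and nothing more.

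The bins formed 173 runs of neighbouring bins. Single bins made up 94 of the runs, 28 runs had 2 bins and 15 had 3. A further 29 runs had at least 5 bins and held 211 bins, or 48.6% of the total, so that the set consisted of many short pieces and a few long ones. The median run was 100 kb long and the longest 2.5 Mb. Coverage in S followed run length loosely: 37.2% of the bins in runs of 1 bin were covered in S, 51.9% in runs of 2 to 4 bins, and 57.3% in runs of 5 or more. The longest run alone gave 25 of the 211 bins of the last class and 23 of its 121 covered bins. A run of 1 bin cannot be mixed. Of the 79 runs of 2 or more bins, 26 were covered in S throughout, 28 had no covered bin and 25 were mixed, and among the 29 runs of 5 or more bins 16 were mixed. With 1 list per stage there is no replicate spread for any of these counts, and no test is given.

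**Figure D1:**
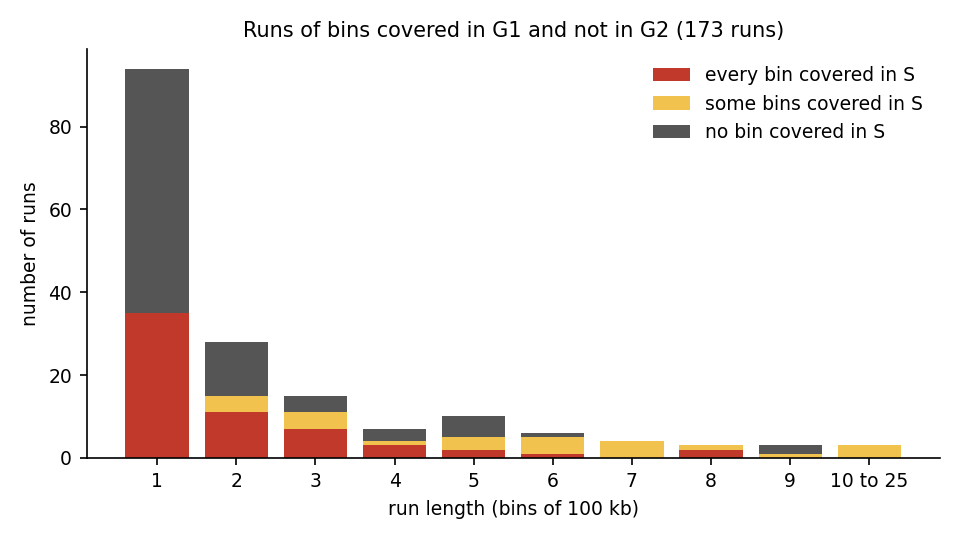
Number of runs (vertical axis) by run length in bins of 100 kb (horizontal axis), with colours for runs covered in S in every bin, in some bins or in none. Runs of 1 bin are the tallest bar, with 94 runs, and the 3 runs of 10 or more bins are all mixed.

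Kept domains are the 4487 bins covered in G1, S and G2, which formed 268 stretches with a median length of 1.2 Mb. Of the 173 runs, 111 (64.2%) lay directly beside such a stretch, 100 of them on 1 side and 11 on both sides. The runs that filled a gap between kept stretches on both sides held 49 bins, and all 49 (100%) were covered in S. Runs with a kept stretch on 1 side held 181 bins, of which 60.8% were covered in S, and runs with none held 204 bins, of which 31.4% were. The definition of a kept bin includes S, so this order partly describes how far S coverage reaches from one bin to the next. Among all 5331 bins covered in G1, 88.4% were covered in S, above each of these values except that of the runs enclosed on both sides.

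Measured per bin, 122 of the 434 (28.1%) touched a kept bin and 155 (35.7%) were more than 10 bins away. The bins covered in S had a median distance of 2 bins and those not covered in S a median of 8. In the reverse class, the 747 bins covered in G2 and not in G1, the median distance was 7 bins, and 23.7% of the bins were covered in S. Runs of that class touched kept stretches on at least 1 side in 53.1% of 254 cases, and their bins were covered in S at 70.6%, 43.4% and 5.13% with kept stretches on 2, 1 and 0 sides. In both classes the share covered in S was highest in runs between kept stretches and lowest in runs touching none. Kept bins are covered in S by definition, so this order is partly built in for both classes and the second adds no support. Touching none does not mean far from a domain. Of the 62 such runs covered in G1 and not in G2, 28 lay beside a bin covered in G1 and G2 but not in S.

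**Figure D2:**
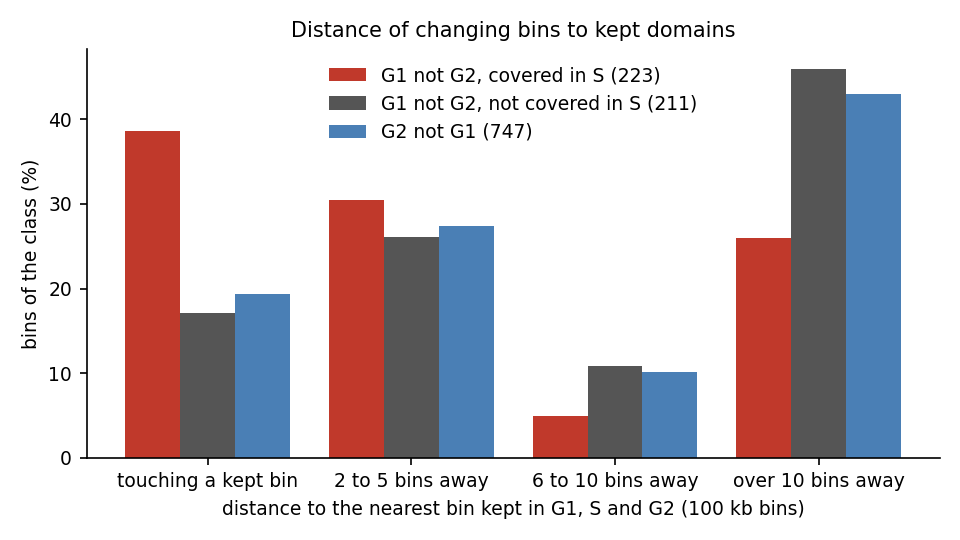
Percent of the bins of each class (vertical axis) by distance to the nearest bin kept in G1, S and G2 (horizontal axis, in 100 kb bins). Of the bins covered in G1 and not in G2, 38.6% of those covered in S touch a kept bin, against 17.1% of those not covered in S.

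Seen from the G1 domains, the loss was mostly at edges or of whole small domains. Of 329 G1 domains on the autosomes, 152 (46.2%) contained at least 1 of the bins. In 102 domains 1 edge was lost, with 166 bins at that edge, and in 13 both edges, with 52 bins at the edges. Another 34 domains were lost whole, with 167 bins (38.5% of the total), and their median length was 0.45 Mb, against 1.1 Mb for all G1 domains. Bins lost inside a domain, with kept bins on both sides, numbered 49 in 8 domains, all covered in S, and 3 of these domains, with 16 of the bins, lost no edge. Of the domains lost whole, 24 had no bin covered in S, 1 had every bin covered and 9 were mixed. Among domains that lost a part, the median loss was 11.1% of the domain, and 9 lost at least 50%. Kept stretches had these bins at their border in 105 of 268 cases, and 26 had them on 1 side and newly covered G2 bins on the other.

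The bins were spread over all 22 autosomes, with unequal shares. Chromosomes 3 and 6 held 53 each, chromosome 8 held 42 and chromosome 5 held 31, and these 4 chromosomes together had 41.2% of the bins against 24.2% of all bins. Relative to what was covered in G1, chromosome 6 had the highest share at 26.2%, then chromosome 21 at 17.5%, and chromosome 18 the lowest at 3.07%, with a median over chromosomes of 7.57%. On chromosome 6, 43 of the 53 bins were covered in S, whereas on chromosomes 7, 12, 15, 17, 19 and 22 none was. A single run, chr6:91400001-93900000, held 25 of the 53 bins of chromosome 6 and 23 of the 43 covered in S. Few lay near chromosome ends: 8 bins (1.84%) were within 5 Mb of an end, compared with 7.40% of kept bins and 23.2% of the bins covered in G2 and not in G1. Position relative to centromeres, repeats or gaps in the hg19 sequence was not measured. Whether it bears on the loss of domains or on the bins without genes was not tested.

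**Figure D3:**
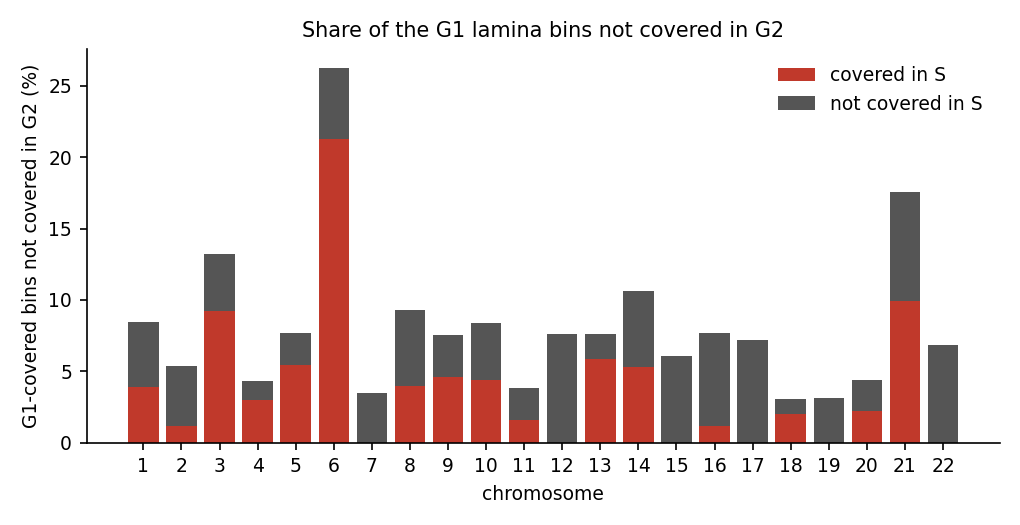
Percent of the G1-covered bins of each chromosome that were not covered in G2 (vertical axis), divided into bins covered and not covered in S. Chromosome 6 reaches 26.2% and chromosome 18 has the lowest bar, 3.07%.

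The longest run was chr6:91400001-93900000, with 25 bins, 23 of them covered in S, and lay 4.0 Mb from the nearest kept stretch. It contained the starts of MIR4643, a microRNA gene, and CASC6, a long non-coding RNA gene, and neither had a count in any library. The second was chr3:62600001-63700000, with 11 bins, 9 covered in S, and held the starts of CADPS, which primes dense-core vesicles for release, SYNPR, a synaptic vesicle membrane protein, SYNPR-AS1, LINC00698 and SNTN, a protein of cilia. Counts were at most 1 in any library for each of these 5 genes. The third, chr21:19300001-20300000, had 10 bins, 8 covered in S, and bordered a kept stretch on 1 side. It held TMPRSS15, the enteropeptidase that activates trypsinogen, MIR548XHG and MIR548X, all at 0 counts in all 8 libraries.

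Other long runs differed in their S state and in their surroundings. The run chr8:108000001-108900000 held the start of ANGPT1, a ligand of an endothelial receptor, and chr14:33300001-34200000 held NPAS3, a neuronal transcription factor. Both had 9 bins, none covered in S, and had no domain of any stage on either side. In contrast, chr10:56800001-57600000, with 8 bins all covered in S, was enclosed by kept stretches on both sides and had MTRNR2L5 as its single gene start. The 7 bins of chr5:45800001-46500000 held no gene start and lay 14.5 Mb from kept chromatin.

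The bins were poor in genes. They held 105 gene starts, or 2.42 per Mb, compared with 2.96 in kept bins, 7.15 in bins covered in G2 and not in G1, and 10.3 in bins covered in no stage. Density was 2.06 per Mb in bins covered in S (46 genes) and 2.80 in bins not covered in S (59 genes). No gene started in 80.2% of the bins, and 53.0% had no base inside a gene's span. Gene spans covered 32.8% of the bases, close to the 33.6% in kept bins and below the 47.5% in bins covered in G2 and not in G1. By run, 103 of 173 had no gene start. A further 60 gene rows overlapped the bins with a start elsewhere, among them CHODL with 97.0% of its span in the bins, XIRP2 with 85.2% and FOXP1 with 78.8%. They include SRGAP2D, with an annotated span of 85474 kb, and MIR6511B1 and MIR6511B2, with 13071 kb each. All bins under such a span count as inside a gene. The 32.8% and the 53.0% depend on these rows to an extent that was not measured.

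Of the 99 genes matched to a RefSeq type, 54 were protein coding. Long non-coding RNA symbols accounted for 36 of the 105 rows, microRNA symbols for 6 and small nucleolar RNA symbols for 2. The set held 2 olfactory receptor genes, OR4A5 and OR4C46 (1.90% of 105), whereas 118 of the 1329 genes of kept bins were olfactory receptors (8.88%). Zinc finger symbols numbered 5 (4.76%), namely ZFPM2, ZNF85, ZNF708, ZNF738 and ZNF493, all in bins not covered in S, against 5.64% in kept bins. Among all 27630 rows, 415 carry an olfactory receptor symbol and 627 a zinc finger symbol. No protocadherin, keratin-associated or taste receptor gene started in the bins. These families have 73, 94 and 27 rows in all and make up 0.15%, 2.26% and 0.075% of the genes of kept bins. With 105 genes, their absence says little.

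Little RNA came from these genes in HEK293FT. Total counts ran from 2321291 to 8557777 per library, and the 105 genes together took 0.0263% (95% Wilson interval 0.0251 to 0.0277) of them in PFA lamina replicate 1, the lowest share, and 0.0422% (0.0406 to 0.0439) in native lamina replicate 2, the highest. The reads carry no molecular identifiers and may repeat one molecule, so all intervals here cover counting error only. No count in any library was found for 34 of the 105 genes. The expression filter, which asks for about 1.60 CPM (counts scaled to the library total) in at least 2 libraries, was passed by 31 (29.5%), against 15.7% of genes in kept bins, 34.1% in bins covered in G2 and not in G1, 65.0% in bins of no stage and 59.7% of all genes. Genes of bins covered in S passed in 10 of 46 cases (21.7%) and those of bins not covered in S in 21 of 59 (35.6%). Of the 31, 13 reached the limit in both libraries of all 4 groups and 9 in both libraries of 1 group, so the tested genes are partly chosen by being high somewhere.

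**Figure D4:**
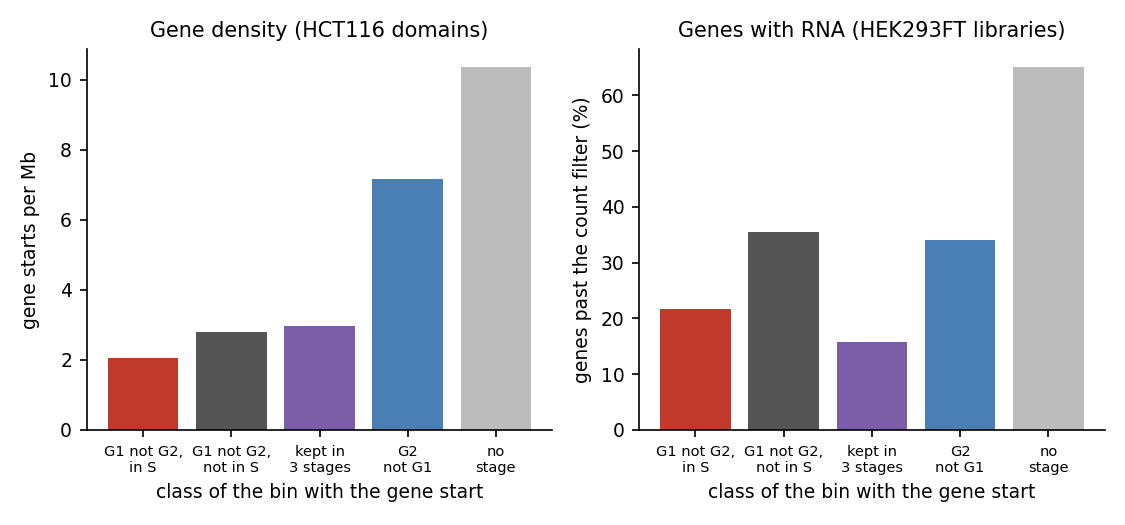
Left, gene starts per Mb by class of bin. Right, percent of those genes that passed the expression filter in the HEK293FT libraries. Bins covered in G1 and not in G2 have 2.06 gene starts per Mb where covered in S and 2.80 where not, and the shares passing the filter are 21.7% and 35.6%, between the 15.7% of kept bins and the 65.0% of bins of no stage.

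Markers of the labelled cells and fractions were looked up in all 8 libraries. Of 5 markers of HEK293 cells, EYA1, LHX1, NEFM and NEFL had counts in all 8 and PAX2 in 7, and they summed to 60.0 to 278 CPM per library, of which NEFL alone had 39.5 to 232 CPM. Of 7 colorectal markers, CDX1, CEACAM5 and KRT20 had at most 2 counts in any library, while CDX2 was present in all 8 at 9.34 to 48.4 CPM and EPCAM in all 8 at 1.20 to 2.96 CPM. VIL1 had counts in 7 libraries, at up to 12.7 CPM and with a nuclear to cytosolic log2 difference of 5.91, and LGALS4 had up to 9 counts, also in 7 libraries. The 7 summed to 23.0 to 51.8 CPM. No RNA of HCT116 was analysed here. The nuclear RNA MALAT1 had a nuclear to cytosolic log2 difference of 3.96 and the mostly cytosolic mRNA of GAPDH one of -2.81, and MEG3, another nuclear marker, had at most 1 count. LMNB1, the gene of the fusion, averaged 51341 CPM in the native and 88620 CPM in the PFA lamina libraries, and was far lower in the fractions, with 3369 CPM (nuclear) and 5290 CPM (cytosolic).

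Per kb of exon, the most abundant RNA from the bins was that of NRN1, neuritin, a neuronal surface protein (chr6:5998233-6007838, bin not covered in S), at 16.2 CPM per kb over all libraries. WSCD1 had 10.2, and ADCY1, a calcium-stimulated adenylyl cyclase, had 7.91. Of the genes of at least 300 exonic bases that came after, ZNF708, LOC645166, LOC728739, TEKT4P2, ZNF493 and NOVA1, a neuronal splicing factor, were between 2.33 and 1.78 CPM per kb. Of these 9 genes, NOVA1 starts in a bin covered in S and the other 8 in bins that were not. NRN1 stood in a single lost bin, and WSCD1 and ADCY1 in wholly lost domains of 2 and 3 bins.

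ADCY1 (chr7:45613739-45762714) had 85.1 and 103 normalised CPM in the nuclear fraction, 85.6 and 131 in the cytosolic fraction, 106 and 151 in the native lamina libraries, and 63.2 and 94.2 in the PFA ones. The native lamina libraries lay above both nuclear and both PFA libraries and overlapped the cytosolic ones. No comparison of ADCY1 passed the test, with log2 differences of -0.46 to 0.45.

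The nuclear against the cytosolic fraction separated 10 of the 31 tested genes, 7 higher and 3 lower in the nucleus, at an adjusted p under 0.05 in edgeR's quasi-likelihood test. Of all 16504 genes tested, 47.3% were called in this comparison, 26.1% higher and 21.2% lower, so 10 of 31 (32.3%) is not above the background. For the 209 tested genes of kept bins the median log2 difference was 0.79, with 45.9% called, 75 higher and 21 lower. The median of the 31 was 0.58, below that of kept bins and beside 0.13 for all genes tested. Leaving out each library in turn gave medians from -0.049, without nuclear replicate 1, to 0.82. Other settings moved it up or down. It was 0.13 with genes placed by their span and 0.23 over genes with at least 10 counts in every library. For some of the 31, being high in the nuclear fraction was partly a condition of being tested. A lean of the 31 to the nucleus is thus not established. For the 10 genes of bins covered in S the median was 0.23 with 2 called, and for the 21 of bins not covered in S it was 1.00 with 8 called. The difference between these 2 classes was not tested.

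The zinc finger genes ZNF708, ZNF738 and ZNF493 of one lost domain edge were among the 7. Such genes encode DNA-binding proteins, many of them repressors. All 3 start in chr19:21500001-21600000, in a run of 2 bins that was not covered in S and borders a kept stretch. ZNF493 (chr19:21579921-21610296) had 33.8 and 29.6 normalised CPM in the nuclear fraction, 4.28 and 4.02 in the cytosolic fraction, 5.51 and 5.89 in the native lamina libraries, and 5.17 and 5.15 in the PFA ones. Both nuclear libraries were far above the other 6. The nuclear to cytosolic difference of ZNF493 was 2.92 ± 0.37 on the log2 scale (edgeR adjusted p = 0.00055), where ± here and below gives the SE of the fit with 2 libraries per group. ZNF738 (chr19:21541735-21571384) had 44.4 and 38.7 in the nuclear fraction, 8.02 and 8.04 in the cytosolic fraction, 9.46 and 15.9 in the native lamina libraries, and 6.47 and 9.56 in the PFA ones. Its difference was 2.37 ± 0.36 (edgeR adjusted p = 0.00080). ZNF708 (chr19:21473962-21512241) had 26.3 and 18.6 in the nuclear fraction, 4.68 and 5.50 in the cytosolic fraction, 6.03 and 3.98 in the native lamina libraries, and 8.32 and 5.15 in the PFA ones, with a difference of 2.14 ± 0.43 (edgeR adjusted p = 0.0022).

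Another zinc finger gene, ZNF85, starts at another lost edge, chr19:21100001-21200000. It had 5.76 and 4.64 normalised CPM in the nuclear fraction and 3.74 and 1.27 in the cytosolic fraction, a log2 difference of 1.00 ± 0.70 that did not pass the test (edgeR adjusted p = 0.25). Zinc finger genes of this cluster resemble each other in sequence, and the way reads matching several of them were shared out is not given in the sources used here, so their single values are uncertain to that extent.

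TRPC7, MAMDC2 and FOXP1-AS1, also higher in the nuclear fraction, had few counts elsewhere. Of the fractions, only the nuclear one reached the limit of the expression filter for these genes. Being higher there was thus partly a condition of being tested, and their calls and ratios are a description only. The same holds for the ratios of nuclear to lamina RNA given below for TRPC7 and FOXP1-AS1. TRPC7, a cation channel gene, had 34 and 22 counts in the nuclear libraries and 3 and 0 in the cytosolic ones, a pooled ratio of 18.6 (exact 95% interval from counting error 6.05 to 93.0). MAMDC2, a gene for an extracellular matrix protein, had 16 and 12 against 2 and 0, a ratio of 14.0 (3.52 to 121). FOXP1-AS1 had 28 and 13 against 1 and 0, a ratio of 40.9 (6.94 to 1653). FOXP1-AS1 lies inside the span of FOXP1, and the exons of TRPC7 and MAMDC2 overlap those of another row, so with strand ignored their reads cannot be told from those of the partner.

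NRN1 and WSCD1, the 2 most abundant per kb, were lower in the nuclear fraction. WSCD1 (chr17:5973934-6027747) had 41.7 and 33.3 normalised CPM in the nuclear fraction, 65.9 and 71.7 in the cytosolic fraction, 69.1 and 57.8 in the native lamina libraries, and 72.6 and 63.3 in the PFA ones. Its nuclear to cytosolic log2 difference was -0.87 ± 0.27 (edgeR adjusted p = 0.018). NRN1 had 9.49 and 44.3 in the nuclear fraction, 44.9 and 137 in the cytosolic fraction, 19.0 and 42.3 in the native lamina libraries, and 31.4 and 12.5 in the PFA ones. Its difference of -1.75 ± 0.66 (edgeR adjusted p = 0.043) comes with a gap between replicates as wide as that between groups, and the lower cytosolic library is barely above the higher nuclear one. The call of NRN1 was lost in DESeq2 (adjusted p = 0.15), with upper-quartile factors (edgeR adjusted p = 0.073), without nuclear replicate 1 (0.27) and without cytosolic replicate 2 (0.44). That of WSCD1 was lost with upper-quartile factors (edgeR adjusted p = 0.077) and without any 1 of the 4 fraction libraries (0.054 to 0.13), and that of MAMDC2 in DESeq2 (adjusted p = 0.056), without either nuclear replicate (0.12 and 0.083) and without cytosolic replicate 2 (0.0996). Without nuclear replicate 1 the calls of TRPC7 (edgeR adjusted p = 0.068) and FOXP1-AS1 (0.096) were lost too, 4 genes of the bins were called in this comparison, and the median turned to -0.049.

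The other 21 tested genes were called in no comparison, and their mean level ran from 0.76 CPM for ZMAT4 to 102 CPM for ADCY1, with a median of 2.26. MITF, a transcription factor of pigment cells and osteoclasts (chr3:69788586-70017488), starts in a bin covered in S and next to a kept bin. It had 4.67 and 2.75 normalised CPM in the nuclear fraction, 8.16 and 4.23 in the cytosolic fraction, 12.9 and 7.66 in the native lamina libraries, and 10.9 and 8.83 in the PFA ones. Its 4 lamina libraries lay above both nuclear ones, yet the differences of 1.47 ± 0.50 and 1.41 ± 0.52 did not pass the edgeR test (adjusted p = 0.083 and 0.072). Of the 74 genes that were not tested, 40 had a count in some library, and the highest count of any of them in a library was 13, for MTRNR2L5.

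**Figure D5:**
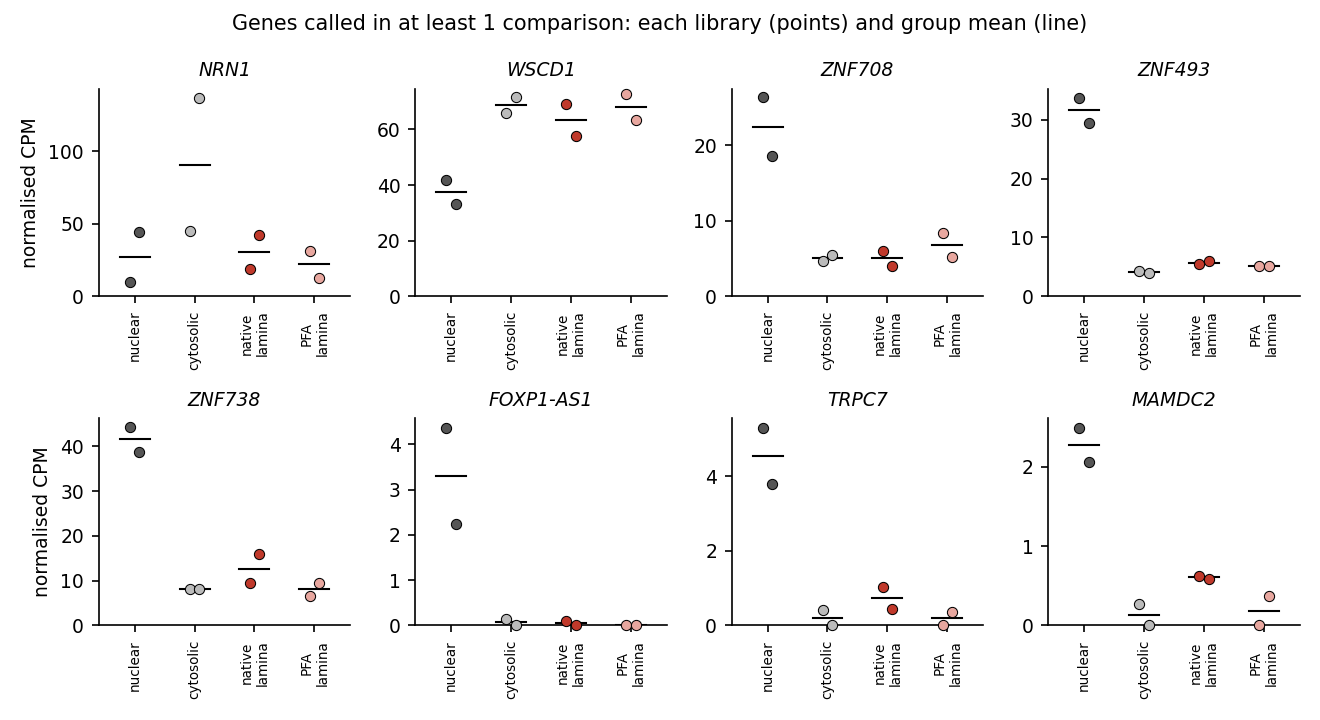
Normalised CPM (vertical axes, each from 0) in each library of the 4 groups for 8 genes called in at least 1 comparison. Points are libraries and lines are means of 2. ZNF493, ZNF738, ZNF708 and the 3 genes of low counts are highest in the nuclear fraction, WSCD1 is lowest there, and NRN1 is low there together with both lamina preparations.

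At the native lamina, 5 of the 31 genes (16.1%) were lower than in the nuclear fraction and 0 were higher, beside 7.31% of all genes called in either direction, 3.87% higher and 3.44% lower. Among them were ZNF493 (-2.47 ± 0.36, edgeR adjusted p = 0.0052), ZNF708 (-2.15 ± 0.43, adjusted p = 0.016), ZNF738 (-1.72 ± 0.35, adjusted p = 0.018) and FOXP1-AS1. This comparison shares the nuclear libraries with the one before. FOXP1-AS1 had 1 and 0 counts at the native lamina, a ratio of nuclear to native lamina of 54.9 (exact 95% interval 9.32 to 2222). Of the tested genes of kept bins 12.9% were called, 12 higher and 15 lower, with a median log2 difference of -0.19. The median of the 31 was -0.60, beside -0.07 for all genes tested. It turned to 0.22 over the genes with at least 10 counts in every library and was -0.048 without nuclear replicate 1. The count depended on single libraries: it was 0 without nuclear replicate 1 or without nuclear replicate 2, 1 without native replicate 1, 2 without native replicate 2, 9 without PFA replicate 1 and 10 without PFA replicate 2.

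At the PFA lamina, 7 of the 31 (22.6%) differed from the nuclear fraction, 6 lower and 1 higher, beside 17.4% of all genes called, 9.63% higher and 7.81% lower. WSCD1 was the 1 higher gene, by 0.86 ± 0.27 on the log2 scale (edgeR adjusted p = 0.045). This call was lost in 4 of 8 other settings. Among these were DESeq2 size factors (edgeR adjusted p = 0.054), upper-quartile factors (0.087) and a fit of only the 4 libraries compared (0.10). It was also lost without any 1 library other than PFA replicate 2. With each library left out in turn, the log2 difference of WSCD1 ran from 0.71 to 1.03. ZNF493 fell by 2.61 ± 0.38 (edgeR adjusted p = 0.0053), ZNF738 by 2.40 ± 0.38 (adjusted p = 0.0059) and ZNF708 by 1.70 ± 0.43 (adjusted p = 0.022). TRPC7 had 0 and 1 counts at the PFA lamina, a ratio of nuclear to PFA lamina of 37.2 (exact 95% interval 6.41 to 1494), and FOXP1-AS1 had 0 and 0 and was at least 3.98-fold lower against a floor of 3 counts per library. Tested genes of kept bins were close to the 31: 20.6% were called, 14 higher and 29 lower, with a median of -0.37. The median of the 31 was -0.40, beside -0.04 for all genes tested. The count was 0 without nuclear replicate 1, 3 without nuclear replicate 2 and 3 without PFA replicate 1.

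Against the cytosolic fraction, 0 of the 31 genes were called at the native lamina by edgeR or by DESeq2, with 2 at an unadjusted p under 0.05, beside 13.8% of all genes called, 6.99% higher and 6.77% lower. At the PFA lamina 0 were called by either tool, with 2 at an unadjusted p under 0.05, beside 0.673% of all genes, 0.527% higher and 0.145% lower. Medians of the 31 were -0.01 and -0.16, against 0.10 and 0.08 for all genes tested. Tested genes of kept bins had medians of 0.37 and 0.34. Of them 9.57% were called at the native lamina, 18 higher and 2 lower, and 0 at the PFA lamina. The medians of the 31 turned to 0.23 and 0.050 over the genes with at least 10 counts in every library. NRN1 differed by -1.57 ± 0.66 at the native lamina (edgeR adjusted p = 0.12), and at the PFA lamina its edgeR adjusted p was 0.13. The count was 1 at the native lamina without PFA replicate 1 or without PFA replicate 2, and 1 at the PFA lamina without PFA replicate 1. These comparisons share control libraries with the ones above, so their values are set side by side and are not counted as separate evidence.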

How the data were processed

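Lamina domains of HCT116 and gene counts of 8 HEK293FT libraries were analysed, both on hg19. The deposited domain lists hold positions of intervals without a score, as 1 consensus list per stage, and the name of each list, given in the labels, refers to a hidden Markov model. Neither the caller nor the treatment of replicates is given in the sources used here, and no replicate spread can be given for domains. Counts per gene row were made by the authors with featureCounts 1.5.2 on the RefFlat annotation, per the file headers, which state that strand was ignored and that reads over several genes were counted for each. The submitters' processing notes name TopHat2 2.1.1 and Bowtie2 2.3.2 without a role. The exonic length of each row, in bases, is also a deposited column.

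The bins and gene lists were chosen with earlier results of these data known. A gene was placed by its start in the deposited annotation. Of 27630 rows, 1857 were not placed, among them 366 on several chromosomes and 316 on both strands. Counts were filtered with filterByExpr by group, scaled by TMM and tested with edgeR 4.0.16 (quasi-likelihood, R 4.3.3) in 1 fit of all 8 libraries with no block, and p-values were adjusted by Benjamini-Hochberg over 16504 genes. Normalised CPM are counts over TMM-scaled library sizes. The SE of a log2 difference is its size divided by the square root of the quasi-likelihood F statistic. Named genes, some of which are not reported here, are the 10 highest per kb with at least 300 exonic bases, up to 5 called genes per direction and comparison whose higher group had 20 or more counts in both libraries, and the genes of the 3 longest runs. Other genes named were chosen after their values were seen. Shares have 95% Wilson intervals, and ratios with few counts exact binomial ones. The fit was tested on simulated data. Alternatives were other factors, filters, bins and gene placements, DESeq2 1.42.0, a replicate block and leaving out each library.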

Additional observations from a re-analysis of the deposited data

How the results depend on the processing

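Asking for any base or for the whole bin to be covered selects the same bins, because coverage was all or nothing. These 2 settings therefore could not move the domain results and say nothing on how stable they are. With bins of 50 kb there were 868 bins, since each 100 kb bin makes 2, and 14.1% touched a kept domain. With only runs of at least 2 bins there were 79 runs, 16.5% of bins touched a kept domain and genes numbered 1.97 per Mb. With at least 10 counts in every library 11.4% of the genes passed, 5 were called between the fractions and 3 between the PFA lamina and the nuclear fraction, and the medians were 0.23 (nuclear against cytosolic), 0.22 (native lamina against nuclear), 0.23 (native lamina against cytosolic) and 0.050 (PFA lamina against cytosolic). This filter leaves fewer genes, and the medians of -0.60 and -0.16 changed sign under it, as did that of -0.01. The calls of NRN1 and WSCD1 between the fractions were lost under it (edgeR adjusted p = 0.060 and 0.056).

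Without a filter, 8 genes were called between the native lamina and the nuclear fraction, and 1 each between the native or the PFA lamina and the cytosolic fraction. The medians were then 1.21 (nuclear against cytosolic), -0.61 (PFA lamina against nuclear) and 0.0 (PFA lamina against cytosolic). Fits of only the 4 libraries compared called 12 genes (native lamina against nuclear), 1 (native lamina against cytosolic) and 3 (PFA lamina against nuclear), with a median of -0.034 for PFA lamina against cytosolic. Upper-quartile factors gave medians of 0.85 (nuclear against cytosolic) and -0.60 (PFA lamina against nuclear), and total counts 0.29 (native lamina against cytosolic). These scalings moved the median of all genes as well, by 0.27 and -0.16 with upper-quartile factors and by 0.29 with total counts, and relative to all genes the 3 medians were 0.45, -0.40 and -0.10, against 0.45, -0.36 and -0.10 with TMM. Genes placed by where at least 50% of their span lies gave a median of 0.13 between the fractions. Genes that share no exon with another row gave 0.32 there and -0.25 for PFA lamina against nuclear. The cause of these shifts was not tested.

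Leaving out each library in turn gave 4 to 14 calls between the fractions, 0 to 10 for native lamina against nuclear, 0 to 1 against cytosolic, 0 to 10 for PFA lamina against nuclear and 0 to 1 against cytosolic. In the same order the medians ran from -0.049 to 0.82, -0.61 to -0.048, -0.070 to 0.34, -1.09 to -0.14 and -0.31 to 0.0. A group left with 1 library is assumed to vary like the other groups. For the called genes no alternative reversed a direction. Of 167 values under other settings 154 stayed past the threshold, and of 176 with a library left out 127 did.

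The replicate numbers of different groups correlated at -0.07 to 0.32 in their deviations from the group mean and were not treated as pairs. With the replicate block there were 10, 7, 0, 8 and 0 calls.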
